A study of Danio rerio with 6 samples.

Results

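Claudin transcripts were compared between olfactory rosettes of wild-type and Rag1 mutant zebrafish. The family was taken as every array probe whose annotated gene symbol begins with cldn, which gave 18 probes among the 16226 gene probes of the array. They stand for 18 of the 5462 annotated genes on the array. cldn7b had 2 probes, and 1 probe was annotated to both cldn8.3 and cldn8.2, so 16 genes had a probe of their own. RefSeq (assembly GRCz12tu) lists 48 protein-coding symbols that begin with cldn, 2 of them claudin domain genes, so most of the family was not measured here. Of the 18 probes, 16 were tested on all 6 arrays, and the probes of cldna and cldnf lay in a part of the array that had been misread on 1 wild-type array and are given apart.

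Claudins are small proteins that cross the membrane of epithelial cells and join with those of the neighbouring cell into the strands of tight junctions. Some members seal the space between cells and others form pores for selected ions, so the mixture a tissue makes sets how leaky its surface is. Their tails bind scaffold proteins such as those of the zonula occludens and MAGI families, which tie the strands to the actin cytoskeleton. The olfactory rosette carries a sensory epithelium that lies open to the water, and its cells are joined by such junctions near the surface.

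The rosettes, the paired folded organs of smell, came from untreated adults of 1 to 2 years and of mixed sex. The control group held 3 samples of wild-type siblings of the mutants, and the other held 3 samples of fish homozygous for a mutation of rag1, which encodes a subunit of the recombinase of antigen receptor genes. No source used here gives the mutant allele, the number of fish per sample or whether samples came from separate fish, so p-values reflect only how far these samples differ, which may be technical variation. A source field of mutant replicate 2 reads wild type, whereas its title and strain field give the mutant. Each sample was hybridised to 1 array in 1 colour, and values are normalized spot brightness on the log2 scale. The median gene spot was 4.75 to 7.21 times as bright as the median blank spot, and 96.7% to 99.5% of probes lay above the 95th percentile of the blank spots. Precision is limited by the number of arrays. The cyclic nucleotide-gated channel gene cnga2, which marks olfactory sensory neurons, read 12.86 to 12.97 in wild type, and the epithelial adhesion gene epcam read 15.67 to 15.93.

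All 16 tested claudin probes exceeded the 95th percentile of the blank spots on all 6 arrays, as did 15174 of all 15617 probes tested. Their brightness covered a wide range. On the wild-type arrays cldn3c read 15.88, 15.72 and 15.87 in replicates 1 to 3, brighter than 99.5% of all probes. The other probes above the 95th percentile of brightness were both cldn7b probes and those of cldni, cldne and cldnb. In zebrafish embryos cldnb is known for its expression in the skin and the lateral line primordium, and cldn7b for its expression in epithelia. cldn1, whose mammalian counterpart is needed for the water barrier of the epidermis, averaged 11.59 ± 0.30 (SD, n = 3), at the 79.9th percentile. The probe of cldn8.3 and cldn8.2 and those of cldnj, cldn12 and cldn23.1 lay between the 43.3rd and the 60.8th percentile. cldn11b averaged 8.39 ± 0.07 (SD, n = 3) at the 33.8th percentile, 2.50 to 3.31 times the median blank spot. cldn3d, cldn15la, cldng and cldnd were faint. Their wild-type means were 7.31, 7.04, 6.73 and 6.73, and no array read them above 2.22 times the median blank spot.

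Brightness depends on the probe as well as on the transcript, so these ranks are no order of transcript abundance among the paralogues. The 2 probes of cldn7b show how far probes of 1 gene can differ, since on the wild-type arrays spot 5602 read 2.20 above spot 8002 on the log2 scale. Whether a probe also detects close paralogues was not tested. The brightest spots were close to the ceiling of the scanner: the cldn3c spot read 48210 per pixel at its lowest and stood at the ceiling on mutant array 2. A rise of such a spot could not be measured in full.

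**Figure D1:**
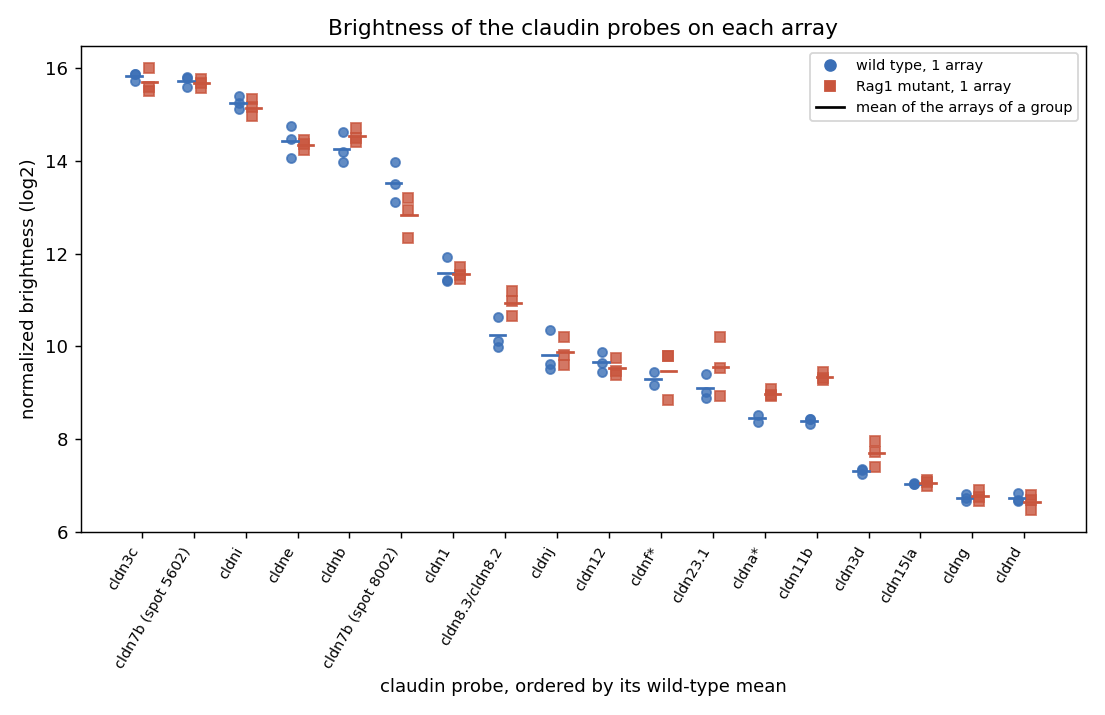
Normalized brightness (log2, vertical axis) of each claudin probe (horizontal axis, ordered by wild-type mean) on each wild-type array (circles) and Rag1 mutant array (squares), with bars at the group means. An asterisk marks the 2 probes for which wild-type array 2 was misread and is not shown. The cldn11b symbols of the groups stand apart, at 8.32 to 8.43 in wild type and 9.27 to 9.44 in the mutants, while most other probes overlap.

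cldn11b rose in the mutants. Its mammalian counterpart forms the tight junctions of central myelin and of Sertoli cells. In replicates 1 to 3, the cldn11b probe read 8.43, 8.43 and 8.32 in wild type and 9.32, 9.44 and 9.27 in the mutants. Every mutant array lay above every wild-type array, and the gap between the groups was wider than the range within either. The difference was 0.95 on the log2 scale, or 1.93-fold (SE 0.12, 95% interval 0.67 to 1.23, n = 3 per group, limma adjusted p = 0.00702). It was 1 of 16 claudin probes that passed. Across all 15617 probes tested, 761 or 4.87% passed in either direction and 2.45% passed as higher, so a single call among 16 is close to the background, and the result concerns cldn11b and not the family. In RNA from whole rosettes, a changed number of cells of a type and a changed amount of RNA per cell cannot be told apart.

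The same separation was present before normalization. Per pixel, the raw cldn11b spot read 373, 425 and 510 in wild type and 663, 776 and 697 in the mutants. Wild-type array 3, on which gene spots were brightest against blanks, still read below all mutant arrays. Over all arrays the pixel SD of the cldn11b spot was 0.308 to 0.392 times its mean, and local background was between 32.9 and 36.1. The call held under each of 16 alternative settings, which gave differences of 0.81 to 1.04 and a limma adjusted p of 0.00542 to 0.0368. When each array in turn was left out, the difference was 0.90 to 0.99. Among the genes described below, the calls of pcp4b and lyn also held under all 16, and those of lztfl1 and ccdc86 did not. The count of 761 probes over the whole array was 661, 322 and 326 without wild-type array 1, 2 or 3. It was 261, 516 and 308 without mutant array 1, 2 or 3.

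**Figure D2:**
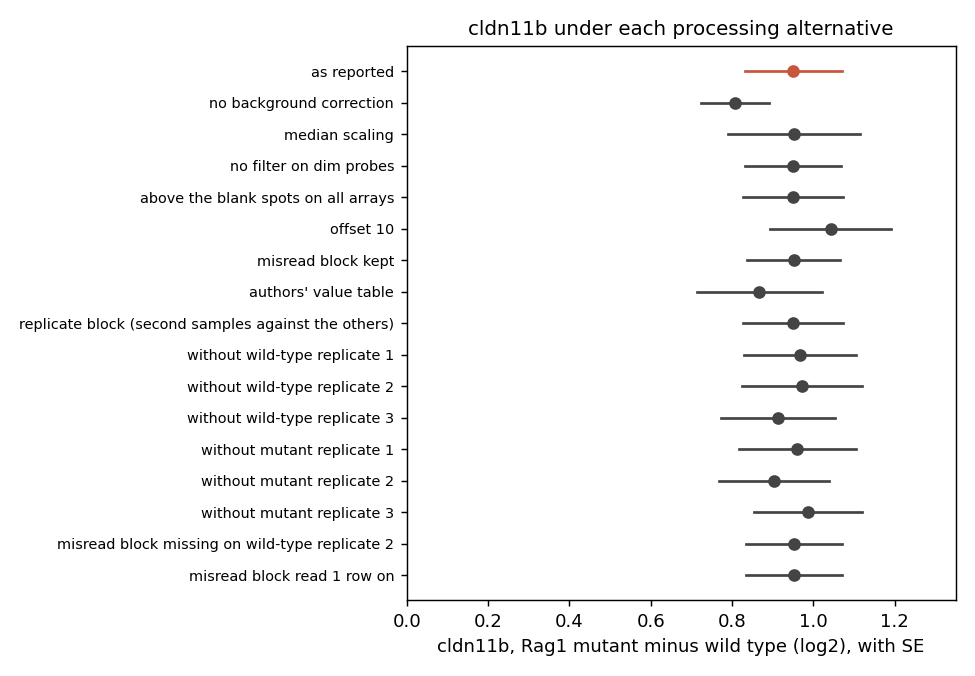
Difference of cldn11b between Rag1 mutant and wild type (log2, horizontal axis, bars are the SE of the fit) as reported and under each processing alternative (vertical axis). All points lie between 0.81 and 1.04.

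Set against its family on the same arrays, cldn11b was at -2.76 relative to the mean log2 brightness of the other 15 tested claudin probes in wild type and at -1.85 in the mutants. The arrays of the groups did not overlap in this value, and the change was 0.91. Against the median of the other probes in place of their mean, the change was 0.37. Here the groups overlapped, at -2.31 to -1.68 in wild type and -1.92 to -1.33 in the mutants. That median was the cldnj probe on wild-type array 1. On the other arrays it was the probe of cldn8.3 and cldn8.2, itself 0.70 higher in the mutants. Exact 2-sided permutation tests over arrays gave p = 0.1 and p = 0.3, and adjusted p = 0.3 for both over 3 such tests. With 3 arrays a side p cannot go below 0.1, so these tests could not have passed and decide nothing about whether cldn11b differed from its paralogues. cldn11b was singled out because it moved, and the other probes include some near the scanner's ceiling.

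No other claudin probe tested on 6 arrays passed. Of the 16 probes 8 lay above 0 and 8 below, with a median log2 difference of -0.004 against 0.0054 for all probes, and 13 lay within 0.5 of 0. An unadjusted p under 0.05 was reached by 4 probes, where 21.1% of all probes reached it. The arrays of the groups did not overlap for 3 probes (cldn11b, cldn3d and the probe of cldn8.3 and cldn8.2), all higher in the mutants, where 25.8% of all probes did not overlap. Both shares are near the background.

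The probe of cldn8.3 and cldn8.2 came closest to the threshold. It read 9.99, 10.11 and 10.63 in wild type and 10.66, 10.98 and 11.19 in the mutants. The highest wild-type array and the lowest mutant array nearly touched. The difference was 0.70 (SE 0.21, 95% interval 0.21 to 1.19, limma adjusted p = 0.107), and the adjusted p was 0.0749 to 0.265 over the alternatives. The RefSeq models of these genes are neighbours in the genome, and the probe cannot assign the signal to either. cldn3d, a paralogue of the claudin-3 type, read 7.34, 7.25 and 7.35 in wild type and 7.72, 7.40 and 7.97 in the mutants. Its difference was 0.38 (SE 0.16, limma adjusted p = 0.229), or 0.25 without mutant array 3 and 0.53 without mutant array 2, at a level close to the blank spots. cldn23.1 varied most within a group. Its mutant arrays read 8.92, 9.54 and 10.204 and overlapped with wild type at 8.89, 9.01 and 9.40, for a difference of 0.46 (SE 0.31, limma adjusted p = 0.471). It was 0.13 without mutant array 3 and 0.77 without mutant array 1.

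Apart from the cldn7b probes, which are given below, the bright claudins and cldn1 showed small differences. cldni differed by -0.11 (95% interval -0.45 to 0.23), cldne by -0.08 (-0.52 to 0.36), cldnb by 0.28 (-0.15 to 0.71) and cldn1 by -0.02 (-0.43 to 0.38). cldn3c differed by -0.12 (-0.49 to 0.25), with 1 saturated spot among its arrays. On at least 1 array the raw spots of cldn3c, cldni and cldne stood so high that a doubling would have passed the scanner's ceiling, so the upper bounds of their intervals are not read as limits on a rise. For cldnb and cldn1 a shift of 2-fold in either direction lay outside the interval. The same held for cldn12 at -0.12 (-0.50 to 0.26), an unusual claudin whose tail lacks the scaffold-binding motif of most members, and for cldnj at 0.05 (-0.54 to 0.63), which zebrafish need to form the otoliths of the ear. cldn15la (0.02), cldng (0.04) and cldnd (-0.08) read so close to the blank spots that a change in their transcripts may not have been detectable. Limma's adjusted p of the uncalled probes ran from 0.107 to 0.965.

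**Figure D3:**
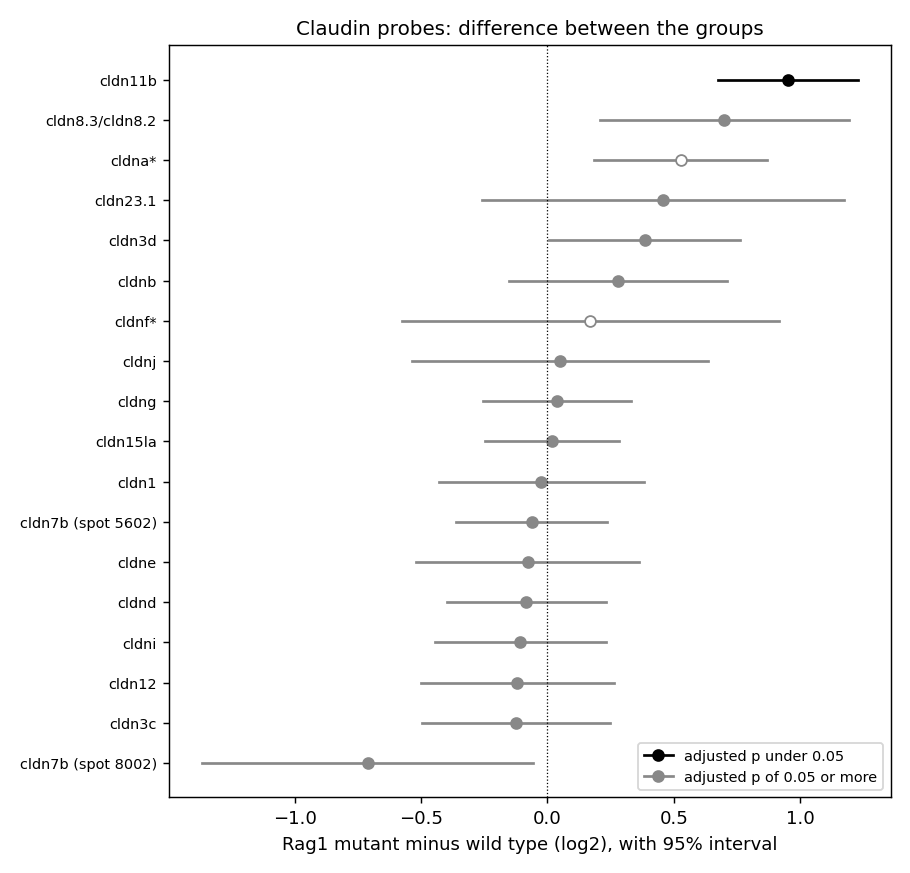
Difference between Rag1 mutant and wild type (log2, horizontal axis) for each claudin probe (vertical axis) with its 95% interval from the limma fit. Black marks an adjusted p under 0.05, and open circles mark the 2 probes fitted on 5 arrays. The interval of cldn11b, from 0.67 to 1.23, is the only black one.

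The 2 cldn7b probes are given 1 by 1. Spot 5602 read 15.81, 15.59 and 15.79 in wild type and 15.76, 15.56 and 15.67 in the mutants, a difference of -0.06 (SE 0.13, limma adjusted p = 0.852). Spot 8002 read 13.11, 13.51 and 13.98 in wild type and 12.94, 13.19 and 12.32 in the mutants, a difference of -0.71 (SE 0.28, limma adjusted p = 0.201). At the second probe the groups overlapped, wild-type array 3 being highest and mutant array 3 lowest. The difference at this probe was -0.46 without mutant array 3. Neither probe passed. The 95% interval was -0.36 to 0.24 at spot 5602 and -1.37 to -0.06 at spot 8002. The raw spot 5602 read 48390 to 61475 per pixel, close to the scanner's ceiling, which can compress its spread, so its narrow interval is not read as precision.

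cldna and cldnf lay in a print block that was read 1 row off on wild-type array 2. With that array left out for these probes, cldna read 8.38 and 8.52 on wild-type arrays 1 and 3 and 8.94, 9.07 and 8.92 on mutant arrays 1 to 3. The mutant arrays were all higher, by 0.53 (SE 0.14, 2 wild-type and 3 mutant arrays), and the difference did not pass (limma adjusted p = 0.0942). Read 1 row on, where the block matched the other arrays, wild-type array 2 gave cldna 8.15, the difference became 0.63 (SE 0.14) and it passed narrowly (limma adjusted p = 0.0467). This reading was tried after the values had been seen. Leaving the array out for these probes was not a planned setting either. The call of cldna depends on how 1 array is read. cldnf read 9.17 and 9.44 in wild type and 9.80, 9.78 and 8.84 in the mutants. Mutant array 3 fell below both wild-type arrays, and the difference was 0.17 (SE 0.31, 2 wild-type and 3 mutant arrays, limma adjusted p = 0.833).

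Several of these genes are neighbours in the RefSeq gene order. cldnj, cldne, cldnf and cldna follow one another with 0 other protein-coding genes between them, and their differences were 0.05, -0.08, 0.17 and 0.53, the last 2 from 5 arrays. cldn3c, cldn3d and cldnb likewise follow one another, with differences of -0.12, 0.38 and 0.28. That run goes on through cldn29, which was not on the array, to cldnd, whose difference was -0.08 close to the blank spots. Members of both runs lay on either side of 0. cldn11b stood in no such run with another claudin gene.

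Other proteins of the tight junction were also examined. Of 62 gene symbols listed, 14 were on the array and all 14 were tested. Of these 0 rose and 1 fell, around a median log2 difference of 0.06, beside 0.0054 and 4.87% called for all probes. The gene that fell was magi1b, which encodes a scaffold of the MAGI family. It read 9.94, 9.95 and 9.92 in wild type and 9.37, 9.36 and 9.27 in the mutants, with no overlap, and fell by 0.60 (SE 0.11, n = 3 per group, limma adjusted p = 0.028). Leaving out any 1 of the 6 arrays ended this call, at adjusted p of 0.0566 to 0.0981, while the difference stayed between -0.62 and -0.57.

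The other junction genes named by rule did not pass. Occludin, another strand protein, is represented by oclnb, which read 10.48, 12.02 and 12.31 in wild type and 12.07, 12.34 and 11.90 in the mutants. Its difference of 0.51 (SE 0.43, limma adjusted p = 0.584) rested on wild-type array 1 and was -0.06 without it. The tricellulin relative marveld3 averaged 6.65 in wild type, below the faint cldnd at 6.73. It differed by 0.22, or -0.03 without mutant array 3. The polarity kinase gene prkci differed by 0.20, or 0.13 without mutant array 1 and 0.30 without mutant array 3. The polarity scaffold patj differed by -0.30, or 0.02 without wild-type array 1, and lsr, whose product recruits tricellulin to the corners where cells meet in mammals, by -0.15, or -0.0002 without wild-type array 3 and -0.27 without wild-type array 1.

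**Figure D4:**
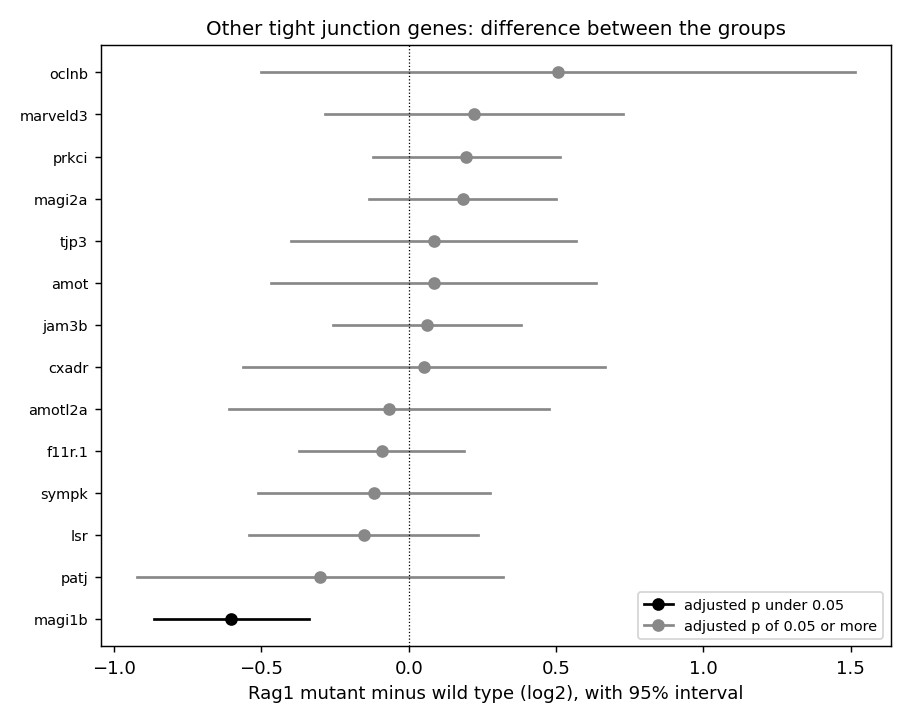
Difference between Rag1 mutant and wild type (log2, horizontal axis) for the 14 other tight junction genes on the array (vertical axis), each by its brightest probe, with its 95% interval. The interval of magi1b lies wholly below 0 and is the only black one, and the interval of oclnb is the widest.

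Markers of other cells moved with the groups, where 2.45% of all probes rose and 4.87% passed in either direction. Of 5 genes listed for macrophages 4 rose. The summed normalized brightness of all 5 was 17800 to 25030 in wild type and 32250 to 47240 in the mutants. Whether these genes mark macrophages alone was not tested. Of 5 neutrophil genes 4 rose, with sums of 1853 to 1975 and 8499 to 23360. Of 4 red cell genes 1, cahz, passed as higher, with sums of 15510 to 20950 and 26280 to 66040. All 4 read higher on every mutant array, where 25.8% of all probes did not overlap in either direction. hbaa1, hbba1 and alas2 did not pass. A sum is weighted towards its brightest genes. On the log2 scale hbaa1 and hbba1 averaged 13.15 and 13.18 in wild type, against 8.54 for cahz. The brightest macrophage gene, lgmn at 13.71, did not pass either. Of 5 genes of olfactory sensory neurons 4 fell, with sums of 66180 to 81590 and 33200 to 42940. No listed gene was called among 8 of surface epithelium, 6 of glia and myelin, 4 of endothelium and 7 of fibroblasts and matrix, a count near that background. The 1 ionocyte gene measured, the carbonic anhydrase gene ca2, was not called at either of its 2 probes. It differed by -0.56 at the brighter probe, where it read lower on every mutant array. At the other probe it differed by -0.62, and the groups overlapped. Surface epithelium summed to 117900 to 141500 in wild type and 126400 to 128700 in the mutants. Its brightest gene, epcam, averaged 15.82 in wild type, the level of cldn3c, whose spot was close to the scanner's ceiling. A rise in this sum may not have been measured in full. The fibroblast and matrix genes summed to 26710 to 29300 in wild type and 14740 to 23670 in the mutants, without overlap. Their mean level did overlap, at 10.49 in wild type and 10.03 to 10.65 in the mutants. The collagen genes col1a1a, col1a2 and col5a1 each read lower on every mutant array, by differences of -0.68, -0.59 and -0.63. In this list col1a1b and pdgfra also lay below 0. The other 2 genes, dcn and twist1a, lay above 0, at 0.84 and 0.59, and twist1a read higher on every mutant array. None of the 7 passed. Endothelial genes summed to 1024 to 1108 and 1052 to 1322. The part of these cells in the cldn11b result was not tested.

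Genes of glia and myelin are given 1 by 1, since the mammalian counterpart of cldn11b is a myelin gene. Their median log2 difference was 0.24, and their summed brightness was 9992 to 13210 in wild type and 12980 to 14790 in the mutants. The astroglial filament gene gfap read higher on every mutant array at both of its probes. As a background for gfap and for olig2 below, 25.8% of all probes did not overlap in either direction. The gfap probes averaged 7.55 and 7.05 in wild type, near the faint cldn3d and cldn15la at 7.31 and 7.04. gfap differed by 0.58 at the brighter probe (SE 0.20, limma adjusted p = 0.148) and by 0.34 at the other (SE 0.13, limma adjusted p = 0.189). The radial glial gene fabp7a differed by 0.51 (SE 0.22) and the myelin protein gene mbpb by 0.29 (SE 0.16). For pmp22b, another myelin protein gene, the difference was 0.18 at its brighter probe (SE 0.26) and 0.07 at the other (SE 0.32). olig2, a regulator of the oligodendrocyte lineage, read lower on every mutant array, with a difference of -0.47 (SE 0.18, limma adjusted p = 0.193). sox10, a regulator of glial development, differed by -0.007 and was brighter than 3.41% of all probes, near the blank spots. So 4 of the 6 genes of this list lay above 0, olig2 and sox10 lay below, and none passed. Among the mutants, array 2 read lowest for the neutrophil lysozyme gene lyz, at 12.69 against 14.02 and 14.23, and highest for cldn11b. The other listed neutrophil and macrophage genes did not all follow lyz. mpx, cpa5, spi1b, mpeg1.1, lcp1 and lgmn also read lowest on mutant array 2. cebp1 and csf1ra read highest on it, at 7.80 and 9.31, and alox5ap lay between. The mutant arrays lay within 9.27 to 9.44 for cldn11b, so their order carries little information. Whether cldn11b varies together with any of these genes was not tested.

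The 5 named genes whose brightness over the 6 arrays was most like that of cldn11b were lztfl1, pcp4b, ccdc86, asf1bb and lyn, with Pearson r of 0.990 to 0.995. With 6 arrays in 2 groups, all of these probes share the step between the groups, and r is given as a description. pcp4b rose by 1.95 (SE 0.15, limma adjusted p = 0.00103) and the leukocyte kinase gene lyn by 1.21 (SE 0.14, 0.00487). lztfl1 rose by 0.67 (SE 0.12, 0.0252) and ccdc86 by 0.65 (SE 0.12, 0.0274). asf1bb, which encodes a histone chaperone, differed by 0.43 and did not pass (SE 0.12, 0.0775). Leaving out 1 array ended the calls of lztfl1 (any array but wild-type 1) and ccdc86 (any array), at adjusted p up to 0.0898 and 0.0981.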

How the data were processed

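The authors deposited scanner tables with a raw intensity and a local background per spot, and the file headers record no normalization. The scanner is not given in the sources used here. Intensities were divided by 100, the pixels of a spot, since the ceiling is 6553500. In the authors' deposited value table each value is a ratio of the probe to its median over the 6 arrays, was matched to its arrays (r of 0.926 to 0.983) and served as an alternative; its scaling before centring stays unknown. In 1 of 288 blocks (r = 0.241 in place, 0.981 one row off) spots were misread, and its 400 spots were left out. A damaged line removed 1 spot.

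Background was corrected with normexp (offset 50) and arrays were quantile normalized in limma 3.58.1 (R 4.3.3). Probes above the 95th percentile of blank spots on all 3 arrays of a group were kept (15617). Groups were compared with lmFit and eBayes, 2-sided, with Benjamini-Hochberg adjustment over all probes and a threshold of 0.05. Several probes of a listed gene were represented by the brightest. Gene symbols are those of the platform annotation, brought up to date by identifier; cldnd is claudin d. The claudins, the gene lists and the filter were chosen with earlier results of these data known. The text names every claudin probe, junction genes that passed or had the 3 highest or lowest differences, and the 5 genes most like cldn11b; the genes named from the marker lists were added after their values were seen. Alternatives changed the background correction, offset, scaling, filter, misread block and value table, left out each array, or added a replicate block.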

Additional observations from a re-analysis of the deposited data

How the results depend on the processing

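The call of cldn11b and its direction held under all 16 alternatives, and no other claudin probe of the 16 passed under any of them. With the misread block read 1 row on, 2 claudin probes passed, the second being cldna at 0.63. With the block kept as deposited, cldna was at -0.38 and cldnf at -0.86. Leaving out 1 array gave 261 to 661 called probes in all, and 0 called junction genes each time. The labels share only the word second between the groups, which does not pair the samples, and the replicate block of second samples against the others left cldn11b at 0.95 (limma adjusted p = 0.0122) and 752 probes called. Several differences changed sign under some settings, none of them called: under median scaling and in the authors' table cldn7b spot 5602 was at 0.14 and cldn3c at 0.0184 and 0.0188. Without 1 array, the ranges were -0.026 to 0.093 for cldng, -0.11 to 0.31 for cldnj, -0.012 to 0.054 for cldn15la, -0.26 to 0.088 for cldne, -0.12 to 0.15 for cldn1, -0.16 to 0.0052 for cldnd, -0.056 to 0.86 for oclnb, -0.47 to 0.023 for patj and -0.033 to 0.39 for marveld3. Claudins at the level of the blank spots or near the scanner's ceiling are limited by signal, and the others by the number of arrays.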
